A study of Homo sapiens with 4 samples.

Results

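The 4 human ubiquitin C-terminal hydrolases, UCHL1, UCHL3, UCHL5 and BAP1, were examined together with USP14, PSMD14 and ADRM1, their counterparts at the proteasome. The members were the genes whose symbol named at least 1 non-control probe on all 4 arrays, which gave 7 genes out of 29123 gene names on the array, unnamed probes included. They are read by 12 probes, and all 7 passed the filter on dim probes that left 27223 genes for the fit. The members were chosen by the log2 ratios of UCHL1, which stood below Ctrl in one knockout and above it in the other, so the values of UCHL1 are given as a description, without a test. USP14 gives the set its name, and the study named it from these same arrays among genes lower in the double knockout. It is treated in the same way. The study also named UCHL1 among genes strongly affected there. The other 5 genes, UCHL3, UCHL5, BAP1, PSMD14 and ADRM1, were tested.

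The cells were A2780s, an established human epithelial ovarian cancer line in adherent culture. GALNT3 and GALNT6 encode enzymes that start mucin-type O-glycosylation by adding N-acetylgalactosamine to proteins. Total RNA from 2 GALNT3 KO clones made with CRISPR-Cas9 (titled GAL3 KO) and 2 GALNT3/T6 KO clones (titled GAL3/6 KO) was set on Agilent arrays against Ctrl RNA from a mock-transfected clone. By their labels, the GALNT3/T6 KO clones carried shRNA against GALNT6 in the GALNT3 knockout background, so shRNA delivery and selection go together with that group. Each KO clone had an array of its own. The labels place Ctrl in the Cy3 channel and KO in the Cy5 channel of every array, so a dye effect cannot be told apart from a KO effect in a ratio over Ctrl. The study's methods speak of reverse-color labelling of Ctrl and do not say which arrays this concerns. The labels were followed here, and on an array run the other way round the sign of every ratio, those of UCHL1, UCHL5 and ADRM1 included, would be reversed. The replicates are clones, and no array compared Ctrl with Ctrl, so the spread of Ctrl is missing from every test over Ctrl. Ratios of KO over Ctrl are given in log2, after background correction and loess normalization of the dyes, and a gene was called where limma's p, adjusted by Benjamini-Hochberg, was 0.05 or less.

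Deubiquitinases cut ubiquitin from proteins and so reverse the mark that sends many of them to the proteasome. The ubiquitin C-terminal hydrolases are cysteine proteases with a narrow active site cleft that favors small adducts on ubiquitin. The 26S proteasome, the cell's main machine for degrading ubiquitinated proteins, carries 3 deubiquitinases on its regulatory particle. Of these, UCHL5 is held by the ubiquitin receptor ADRM1, USP14 is a reversibly bound cysteine protease, and PSMD14 is a zinc metalloprotease built into the lid. BAP1 works in the nucleus on histone H2A with ASXL proteins, and UCHL1 is abundant in neurons and neuroendocrine cells.

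The probe sequences that carry the comparisons are given first, as printed on the array and 5′ to 3′, with positions on hg19. UCHL1 is read by a single probe at chr4:41270340-41270399 on the plus strand, of which the first 30 of 60 bases are shown because every value of UCHL1 rests on it. ADRM1 is read by 2 probes on the plus strand, at chr20:60883102-60883161 and chr20:60883122-60883181. Capitals mark the 40 bases that they share, so their agreement is not that of independent targets. The UCHL5 probe shown lies at chr1:192990253-192990312 on the minus strand, and is a target apart from the UCHL5 probe spotted 10 times on each array at chr1:192985344-192985403. The USP14 probe shown, at chr18:211209-211268 on the plus strand, is the brighter of a pair whose readings differed. Exon and UTR positions of the probes are not given here, since no annotation of hg19 was used.
UCHL1 probe A_23_P132956, first 30 bases: tctaacgctttaaatggctactttggtttc
UCHL5 probe A_24_P188325: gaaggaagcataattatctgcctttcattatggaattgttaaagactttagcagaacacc
ADRM1 probe A_23_P68665: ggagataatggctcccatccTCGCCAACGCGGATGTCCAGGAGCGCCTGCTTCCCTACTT
ADRM1 probe A_24_P305597: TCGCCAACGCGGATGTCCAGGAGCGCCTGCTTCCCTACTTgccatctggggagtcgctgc
USP14 probe A_24_P313744: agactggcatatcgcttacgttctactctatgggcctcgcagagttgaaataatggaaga

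Each array held 45015 spots, none was saturated, and between 86.9% and 93.8% of the non-control spots were well above background in a channel. The 2 arrays of a group correlated at r = 0.834 for GALNT3 KO and 0.916 for the arrays with the GALNT3/T6 KO label, across genes, which are not independent replicates. The targeted genes were read on every array. On the GALNT3 KO arrays neither channel was well above background for GALNT3, and on the arrays with the GALNT3/T6 KO label its log2 ratios were 4.80 and 5.08. The KO channel there was thus above Ctrl for a gene that the label gives as disrupted, so these arrays are called GALNT3/T6-labelled in what follows. GALNT6 stood at -0.47 and -0.38 on the GALNT3 KO arrays and at -0.66 and -0.69 on the others. Of 10 epithelial markers 8 were called higher on the GALNT3/T6-labelled arrays and none lower. Of 8 mesenchymal markers 5 were called higher there and 3 lower. Over all genes 24.8% were called higher and 23.1% lower. FN1, 1 of the 5, was well above background in neither channel on the GALNT3 KO arrays. It thus passed the filter on dim probes only through the GALNT3/T6-labelled arrays, where it was high. KRT7, 1 of the 8, was well above background on 1 GALNT3 KO array in each channel. KRT18, an epithelial keratin, stood at 5.41 and 5.95 on the GALNT3/T6-labelled arrays. Of the mesenchymal markers, VIM, a filament, stood there at -2.84 and -1.87. CDH2, at 2.40 and 2.68, and COL1A1, at 1.77 and 2.20, went the other way. In GALNT3 KO none of the epithelial markers was called, and 2 mesenchymal markers were called higher. In Ctrl the flag for well above background was passed on all arrays by 9 of 10 epithelial, 7 of 8 mesenchymal, 4 of 4 leukocyte and 2 of 3 endothelial markers, so the flag does not tell these cell types apart. The part of these shifts in the results below was not tested.

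The ratios also depended on where a spot lay. After loess, the median log2 ratio of bright spots (mean log2 signal above 11) was 0.26, 0.22, 0.20 and 0.35 in the first of 10 equal bands of the 532 rows on GALNT3 KO 1 and 2 and on the GALNT3/T6-labelled arrays 1 and 2, the order in which 4 values are listed throughout. In the ninth band it was -0.37, -0.40, -0.53 and -0.49. The fall ran the same way on all 4 arrays. It was seen within a single sequence too, since the 10 spots of the UCHL5 probe A_23_P148798 had SDs of 0.28, 0.29, 0.35 and 0.39 after loess. Their SDs were 0.12, 0.12, 0.11 and 0.15 once the trend along the rows was removed. For this reason every log2 ratio of the 7 genes is followed by its value with the row trend removed, a setting chosen after the data had been seen.

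**Figure D1:**
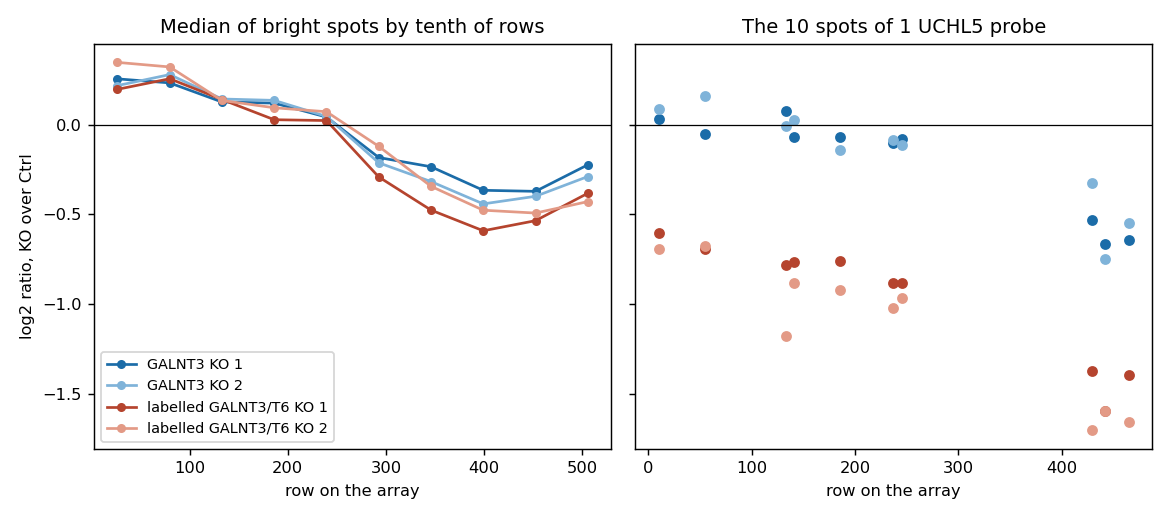
Log2 ratio of KO over Ctrl after loess (vertical axis) against the row on the array (horizontal axis) for the 4 arrays, as the median of bright spots in each of 10 equal bands of rows (left) and as the 10 spots of 1 UCHL5 probe (right). Bright spots fall from 0.20 to 0.35 in the first band to between -0.37 and -0.53 in the ninth, and the UCHL5 spots lie lower at high rows, while at each row the red arrays stay below the blue ones.

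UCHL1 had the widest spread over the arrays of the 7 genes. Log2 ratios were -0.67 and -0.84 for GALNT3 KO and 3.62 and 3.76 on the GALNT3/T6-labelled arrays. The groups do not overlap, but these values chose the members, so the gap between the groups is a description. The 2 clones of each group lie close together. In bulk RNA, fewer cells that express a gene and less RNA per cell cannot be told apart. The values were -0.60, -0.74, 3.51 and 3.66 with the row trend removed. The group means of -0.76 and 3.69 correspond to UCHL1 1.69-fold lower than Ctrl in GALNT3 KO and 12.9-fold higher than Ctrl on the GALNT3/T6-labelled arrays. The difference between the groups was 4.44 in log2, or 21.8-fold, and 4.26 with the row trend removed.

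The channels of the UCHL1 spot show where the contrast lay. In the KO channel the uncorrected spot intensity was 16110 and 13202 on the GALNT3 KO arrays, against 315323 and 424944 on the GALNT3/T6-labelled arrays. In the Ctrl channel it was 34216 and 40170 on the GALNT3 KO arrays, and 32207 and 23970 on the others. The KO channel thus separated the groups, while the Ctrl channel varied less, with its lowest value on the last array. The spot was well above background in both channels on all 4 arrays. The UCHL1 probe shared no run longer than 7 bases, on either strand, with the probes of the other 6 genes.

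**Figure D2:**
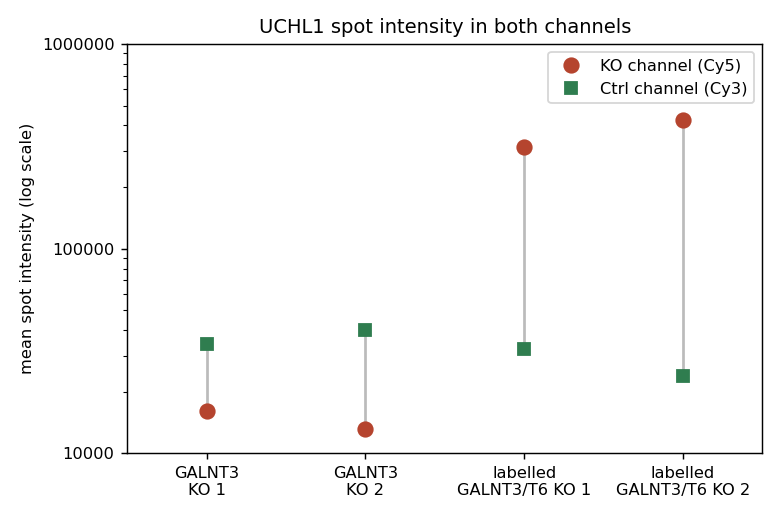
Uncorrected mean spot intensity of UCHL1 (log scale, vertical axis) in the KO channel (Cy5, circles) and the Ctrl channel (Cy3, squares) on each array (horizontal axis). The KO channel lies below Ctrl at 16110 and 13202 in GALNT3 KO, and far above it at 315323 and 424944 on the GALNT3/T6-labelled arrays.

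Among the 27223 genes of the fit, UCHL1 ranked 211 from the highest mean on the GALNT3/T6-labelled arrays, 937 from the lowest mean in GALNT3 KO, and 87 from the highest difference between the groups. These are the values that chose UCHL1, so its ranks and the shares of genes with its pattern are a description. At least 1.5-fold lower on both GALNT3 KO arrays and at least 1.5-fold higher on both others were 170 genes, or 0.624%, and the reverse pattern was held by 130 genes, or 0.478%. By sign alone, with no minimum, the shares were 8.11% and 7.93%.

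The genes closest to UCHL1 over the 4 arrays, by Euclidean distance of the log2 ratios, were MT1E (0.381), VASN (0.440) and IFI27 (0.508), followed by the unnamed probes A_32_P112546 (0.525) and A_32_P75141 (0.543). MT1E, a metallothionein that binds metal ions, stood at -0.44, -1.03, 3.43 and 3.61. VASN, a membrane protein that binds TGF-beta, stood at -1.07, -0.99, 3.70 and 3.69. IFI27, an interferon-induced gene, stood at -0.49, -0.50, 3.34 and 3.59. No gene of the ubiquitin, proteasome or neural lists was among the 100 nearest, while the mesenchymal marker PDGFRB was the eighth. This likeness covers 4 arrays in 2 groups and describes no more than a shared step between them.

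On chromosome 4, 38 genes had probes within 2 Mb of the UCHL1 probe. On the GALNT3/T6-labelled arrays 8 of them were called higher and 8 lower, beside 24.8% and 23.1% of all genes. Their median log2 ratio there was -0.09. LIMCH1, APBB2 and an unnamed probe were singled out among them after their values were seen. LIMCH1, 430 kb away, stood at 0.26, 0.49, 5.62 and 5.57, a difference between the groups of 5.22. APBB2 stood at -0.96, -1.08, 0.14 and 0.15, with the same signs as UCHL1. The unnamed probe lies on the minus strand at chr4:41270164-41270223, 116 bases before the UCHL1 probe. It read -0.08, -0.29, 0.69 and 0.70 in log2, with the same signs as UCHL1. It was dim, however, with intensities between 116 and 207 in the KO channel and between 139 and 191 in the Ctrl channel.

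Since UCHL1 is known from neurons and neuroendocrine cells, 26 neural and neuroendocrine genes were read from the same fit. On the GALNT3/T6-labelled arrays 10 of them were called higher and 7 lower, around a median of 0.27. Over all genes the median was 0.03, with 24.8% called higher and 23.1% lower. Of these 17 calls, 10 remained in the same direction with the row trend removed. The highest called were ENO2, the neuronal enolase, at 1.55 and 2.36, and SCG2, a granin of secretory granules. For SCG2 the Ctrl channel was not well above background on any array, so it passed the filter on dim probes only through the KO channel of the GALNT3/T6-labelled arrays and no test is given for it, although it is counted among the 10. Its level is given as at least 2.24-fold higher than Ctrl, a bound on per-channel signals that is open to dye bias. Among those called lower was CHGB, another granin, at -1.10 and -1.11. ENO2 stood at -0.06 and -0.08 in GALNT3 KO.

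The tested members moved less. In GALNT3 KO, 0 of the 5 were called by limma, where 4.71% of all genes were called higher and 6.35% lower, or 0.896% and 1.61% with the row trend removed. Median centring in place of loess shifted that split from 1283 genes higher and 1729 lower to 546 and 1777. At an unadjusted p of at most 0.05, limma gave 1 of the 5 and the methods' t-test also gave 1. On the GALNT3/T6-labelled arrays 3 of the 5 were called, with ADRM1 higher and UCHL5 and PSMD14 lower. The shares over all genes there were 24.8% higher and 23.1% lower. With the row trend removed, 2 of the 5 were called, beside 18% higher and 20.5% lower among all genes. Between the groups 2 of the 5 differed, ADRM1 upward and UCHL5 downward. Among all genes 11.8% were higher and 11.8% lower in that comparison, and 11.8% and 12.3% with the row trend removed, where the same 2 members were called. With 5 genes a single call is 20% of them, so the counts are not read as a result about the set.

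**Figure D3:**
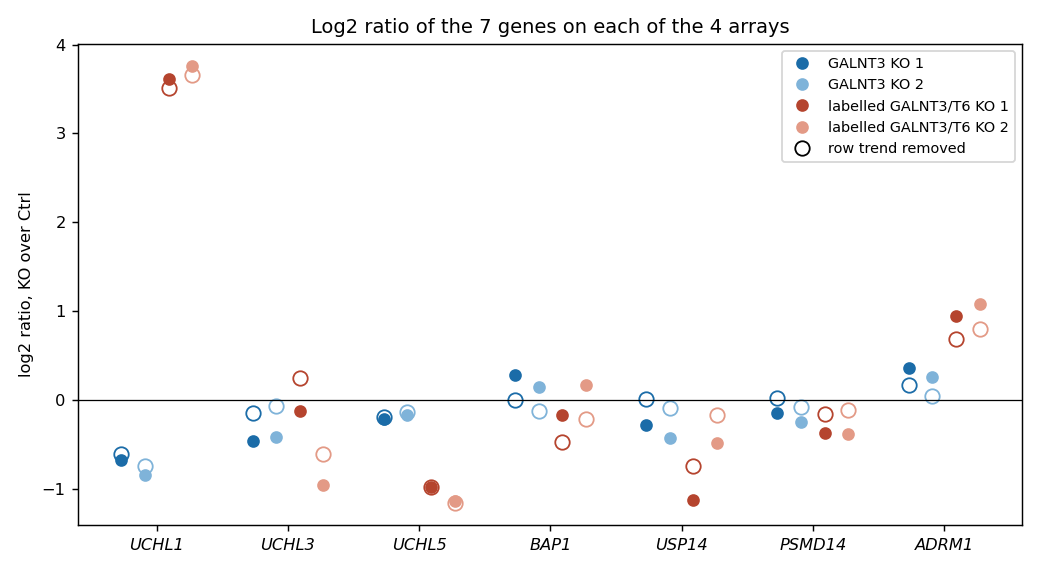
Log2 ratio of KO over Ctrl (vertical axis) for the 7 genes (horizontal axis) on each of the 4 arrays, with filled points after loess and open rings with the row trend removed. UCHL1 spans -0.84 to 3.76, ADRM1 and UCHL5 separate the groups in opposite directions, and the rings of PSMD14 lie between -0.15 and 0.03.

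UCHL3, the close cytosolic relative of UCHL1 that also removes NEDD8, was read by a single probe whose 60 bases span chr13:76178950-76179910 on the plus strand. UCHL3 gave -0.46 and -0.42 in GALNT3 KO and -0.13 and -0.96 on the GALNT3/T6-labelled arrays. Removing the row trend gave -0.15, -0.06, 0.25 and -0.61. The GALNT3 KO values lay between those of the other group, whose 2 clones were far apart. No comparison of UCHL3 passed the threshold, with adjusted p of 0.199 in GALNT3 KO, 0.0893 on the GALNT3/T6-labelled arrays and 0.876 between the groups (limma). The 95% interval of the difference between the groups ran from -0.87 to 0.67, which leaves room for a change in either direction. Without GALNT3/T6 KO replicate 1 the remaining array put UCHL3 at -0.96 (adjusted p = 0.000451 from limma), and that call rests on a single clone. In GALNT3 KO the mean of UCHL3 passed when either GALNT3/T6-labelled array was left out (adjusted p = 0.00905 from limma).

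UCHL5 was lower on the GALNT3/T6-labelled arrays. The mean of its 10 spots was -0.21 and -0.17 in GALNT3 KO and -0.97 and -1.13 on the GALNT3/T6-labelled arrays, and the row-trend-removed values were -0.19, -0.13, -0.97 and -1.16. The groups do not overlap in either setting, which with 2 arrays a group is a description. The share of all genes that do the same is not given here. UCHL5 was 2.07-fold lower than Ctrl on the GALNT3/T6-labelled arrays (log2 -1.05, standard error 0.09, adjusted p = 0.0011 from limma). In GALNT3 KO it was not called, at -0.19 with a 95% interval of -0.42 to 0.04. The difference between the groups was -0.86 (95% interval -1.18 to -0.54, adjusted p = 0.01 from limma). The difference no longer passed when GALNT3 KO replicate 1 was left out (adjusted p = 0.105) and when replicate 2 was (0.11), where the lone GALNT3 KO array is assumed to vary like the others.

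The other UCHL5 probes were read as a check on the target. The probe printed above, A_24_P188325, gave -0.34, -0.57, -1.37 and -1.28, and -0.10, -0.27, -1.07 and -1.05 with the row trend removed. Its difference between the groups was -0.87 in both settings, next to -0.86 for the 10 spots. The third probe, A_32_P38242 at chr1:192982475-192982534, was far dimmer and gave -0.11, 0.03, -0.16 and -0.37, and -0.27, -0.16, -0.35 and -0.58 with the row trend removed. Its difference after loess was -0.22, in the same direction and smaller.

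The genes around UCHL5 were lower as well. Of 13 genes with probes within 2 Mb on chromosome 1, 8 were called lower and 1 higher on the GALNT3/T6-labelled arrays, with a median of -0.82. Over all genes 23.1% were called lower there and 24.8% higher. With the row trend removed 7 of the 13 were called lower and none higher, beside 20.5% and 18% of all genes. Of the 13 genes, 11 then lay below 0, and the median was -0.59. In GALNT3 KO their median was -0.18, and -0.03 with the row trend removed. The medians around the other 6 members lay between -0.13 and 0.10 on the GALNT3/T6-labelled arrays.

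BAP1, the nuclear hydrolase and tumor suppressor, was not called in any comparison. Its brighter probe, at chr3:52435887-52435946 on the minus strand, gave 0.29, 0.15, -0.16 and 0.17, and with the row trend removed -0.003, -0.13, -0.48 and -0.21. The dimmer probe, at chr3:52436624-52436683, gave -0.31, -0.34, -0.61 and -0.44, and -0.17, -0.20, -0.49 and -0.34 with the row trend removed. After loess the probes disagreed in sign on 3 of the 4 arrays, and with the row trend removed both lay at or below 0 on all of them. The mean of the brighter probe on the GALNT3/T6-labelled arrays went from 0.004 (adjusted p = 0.98) to -0.34 (adjusted p = 0.0562) in limma. Between the groups BAP1 differed by -0.21 with a 95% interval of -0.64 to 0.21 (adjusted p = 0.457 from limma).

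Most partners of BAP1 were lower on these arrays. Of 10 partners, 6 were called lower and 1 higher on the GALNT3/T6-labelled arrays, with a median of -0.70. Over all genes 23.1% were called lower there and 24.8% higher. Whether the partners differ from that was not tested. All 7 calls among the partners remained with the row trend removed. ASXL3 was the lowest, at -3.37 and -3.69, and ASXL2 stood at -1.80 and -1.03. Both encode cofactors that bind BAP1, as does ASXL1, which was the single partner called higher, at 0.73 and 1.24. OGT, the transferase that adds N-acetylglucosamine to nuclear proteins, stood at -0.89 and -1.41. FOXK2, a transcription factor that brings BAP1 to DNA, stood at -1.29 and -0.68. MBD5 and KDM1B completed the lower calls with means of -0.96 and -0.41. In GALNT3 KO none of the 10 was called, with the median at -0.13. Between the groups ASXL3 differed by -3.90, OGT by -1.13 and ASXL1 by 1.35, each past the threshold (adjusted p of 0.000945, 0.0301 and 0.0143 from limma).

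USP14, the ubiquitin protease that trims chains at the proteasome, is given as a description. Its brighter probe, printed above, gave -0.28 and -0.42 in GALNT3 KO and -1.12 and -0.48 on the GALNT3/T6-labelled arrays. Removing the row trend gave 0.01, -0.09, -0.75 and -0.16. The other probe, at chr18:213852-213911, gave 0.18, 0.34, -0.62 and -0.49, and -0.08, 0.08, -0.92 and -0.84 with the row trend removed. The probes opposed each other in sign in GALNT3 KO after loess. They lie in different parts of the array, at rows 384 and 67 of 532, and with the row trend removed both lay near 0 there. On the GALNT3/T6-labelled arrays all values of both probes were below 0 in either setting. The group difference was -0.45 by the brighter probe and -0.81 by the other, and -0.42 and -0.88 with the row trend removed.

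PSMD14, the lid metalloprotease that removes ubiquitin chains as substrates enter the proteasome, was read at chr2:162267829-162267888 on the plus strand. Its log2 ratio was -0.14, -0.25, -0.37 and -0.38 in the same order of arrays, and 0.03, -0.08, -0.15 and -0.11 with the row trend removed. The mean of -0.37 on the GALNT3/T6-labelled arrays was called (standard error 0.08, adjusted p = 0.0198 from limma). The call was lost with the row trend removed, at -0.13 (adjusted p = 0.269), with Agilent's own log ratio, at -0.20 (0.171), and with any of the 4 arrays left out (0.0511 to 0.0641). The spot lay at row 389, where bright spots were low on every array. The groups differed by -0.18 with a 95% interval of -0.48 to 0.13 (adjusted p = 0.379 from limma).

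ADRM1, the ubiquitin receptor that docks UCHL5, was higher on the GALNT3/T6-labelled arrays. The brighter probe gave 0.36 and 0.26 in GALNT3 KO and 0.95 and 1.09 on the GALNT3/T6-labelled arrays. The other probe, which shares the 40 bases in capitals above, gave 0.42, 0.26, 0.98 and 1.15. Removing the row trend gave 0.17, 0.05, 0.69 and 0.80 for the brighter probe, and 0.17, 0.004, 0.69 and 0.79 for the other. The rise over Ctrl was 2.02-fold (log2 1.02, standard error 0.09, adjusted p = 0.0013 from limma), and 1.67-fold with the row trend removed (adjusted p = 0.0032). The difference between the groups was 0.71 (95% interval 0.38 to 1.03, adjusted p = 0.018 from limma), and 0.63 with the row trend removed (adjusted p = 0.0225). The call of the difference was lost without GALNT3 KO replicate 1 (0.127) and without replicate 2 (0.15), with median centring (0.0642) and with the replicate number as a block (0.0615). In GALNT3 KO itself ADRM1 was not called (adjusted p = 0.0842), except when either GALNT3/T6-labelled array was left out (0.0376).

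**Figure D4:**
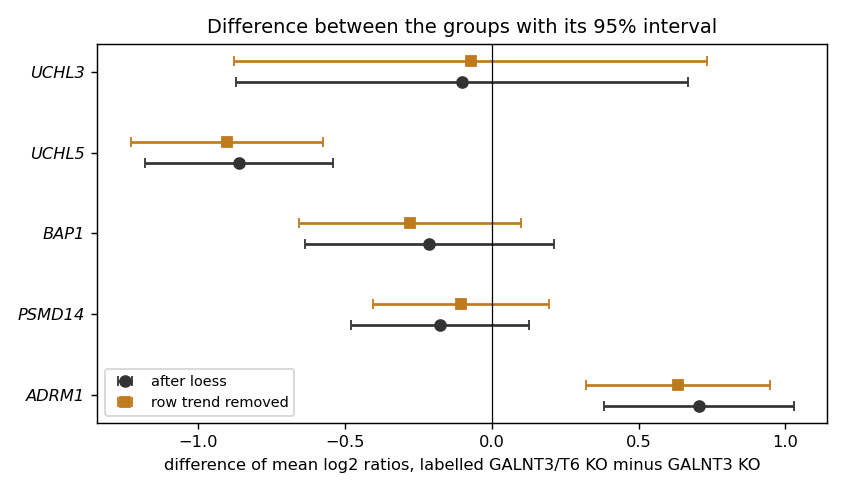
Difference of mean log2 ratios between the GALNT3/T6-labelled arrays and the GALNT3 KO arrays (horizontal axis) for the 5 tested genes (vertical axis), with 95% intervals from limma, n = 2 arrays a group, after loess (circles) and with the row trend removed (squares). The intervals of UCHL5, around -0.86, and ADRM1, around 0.71, lie away from 0, and those of UCHL3, BAP1 and PSMD14 contain it.

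ADRM1 and UCHL5, which bind each other, thus lay on opposite sides of Ctrl. UCHL5 has other partners in the INO80 chromatin remodeling complex, where it is held by NFRKB. Of 14 INO80 subunits, 5 were called lower and 2 higher on the GALNT3/T6-labelled arrays, beside 23.1% and 24.8% of all genes. NFRKB was lower at -0.54 and -0.53, and the ATPases RUVBL1 and RUVBL2 stood at -1.24 and -1.19 on average. The actin-related protein ACTR5 was higher at 1.85 and 1.86. With the row trend removed, the call of INO80D (mean 0.35) was lost and the other 6 remained. In GALNT3 KO the single call was INO80C, at -0.58 and -0.86, which was lost with the row trend removed.

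The 26S proteasome to which ADRM1, UCHL5, USP14 and PSMD14 belong did not move as a block on the GALNT3/T6-labelled arrays. Of 31 other subunits, around a median of -0.18, 6 were called higher and 12 lower, beside 24.8% and 23.1% of all genes. Of these 18 calls, 14 remained with the row trend removed. The regulatory subunits PSMD1, at -2.29 and -1.49, and PSMD7, the inactive partner of PSMD14 in the lid, at -1.60 and -1.80, were the lowest called. The core subunit PSMA7, at 1.75 and 1.45, and the ATPase PSMC2, at 1.02 and 1.15, were the highest. In GALNT3 KO 8 subunits were called lower and none higher, beside 6.35% and 4.71% of all genes. The median of the subunits was -0.37, and PSMD6 was lowest among those called at -0.77. Of those calls 1 remained with the row trend removed, although the median was then -0.42. Fewer were called there without a GALNT3 KO array and more without a GALNT3/T6-labelled one, as over all genes. Each such fit leaves 1 array in a group. Between the groups 5 subunits were higher and 4 lower, beside 11.8% and 11.8% of all genes. Of these 9 calls 8 remained with the row trend removed. Without a GALNT3 KO array fewer were called, as over all genes. PSMA7 was the highest at 1.80 and PSMB5, the chymotrypsin-like catalytic subunit, the lowest at -1.56 (adjusted p = 0.0219 from limma).

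Among 8 immunoproteasome and proteasome activator genes, PSMB8 and PSMB9 showed the largest values. The median of the 8 on the GALNT3/T6-labelled arrays was 0.07, and 4 of them lay below 0. PSMB8, an immunoproteasome catalytic subunit, stood at 0.15 and 0.35 in GALNT3 KO and at 3.77 and 3.55 on the GALNT3/T6-labelled arrays. PSMB9, another of these subunits, stood at -0.65, -0.60, 2.87 and 2.42. The activator gene PSME1 stood at -0.61, -0.34, 0.66 and 2.03, with the 2 GALNT3/T6-labelled arrays far apart. These 3 of the 8 listed genes were called higher on the GALNT3/T6-labelled arrays and none lower, beside 24.8% and 23.1% of all genes. The 3 calls remained with the row trend removed. PSMB10, the remaining immunoproteasome catalytic subunit, stood at -0.25 and -0.27 and differed from GALNT3 KO by -0.60 (adjusted p = 0.0224 from limma). With the row trend removed PSMB10 was called lower than Ctrl as well, at -0.38 (adjusted p = 0.0189 from limma). The single call in GALNT3 KO, PSME4 at 0.49, was lost with the row trend removed.

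Among 19 genes of proteasome assembly and ubiquitin shuttling, 5 were called higher and 9 lower on the GALNT3/T6-labelled arrays. Over all genes 24.8% were called higher there and 23.1% lower. Of the 14 calls in the list, 13 remained with the row trend removed. SQSTM1, the autophagy receptor for ubiquitinated cargo, was the highest at 2.54 and 2.85, and the proteasome ATPase-binding protein PAAF1 followed at 1.12 and 1.40. The shuttle gene UBQLN2, at -2.03 and -0.99, and VCP, the ATPase that extracts ubiquitinated proteins, at -1.95 and -0.82, were the lowest. In GALNT3 KO, PSMG1 and RAD23B were called lower at means of -0.91 and -0.66, and both calls were lost with the row trend removed. Of 6 ubiquitin and activating enzyme genes, RPS27A and UBB, which encode ubiquitin itself, were called higher at means of 1.08 and 1.01. The call of UBB was lost with the row trend removed (adjusted p = 0.0862 from limma). UBA1, the main ubiquitin activating enzyme, stood at 0.61 and 0.42 in GALNT3 KO and at -0.86 and -0.21 on the GALNT3/T6-labelled arrays, a difference of -1.05 (adjusted p = 0.0427 from limma). With the row trend removed, UBA1 and UBA6 were called lower than Ctrl on the GALNT3/T6-labelled arrays. Their means were then -0.81 and -0.34 (adjusted p of 0.0211 and 0.0322 from limma).

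The other deubiquitinases, listed by gene family, give the background against which the 7 genes can be read. Membership of a family does not make each of them a ubiquitin protease, as USP18 removes ISG15. Of 80 measured, 19 (23.8%) were called higher and 27 (33.8%) lower on the GALNT3/T6-labelled arrays, with a median of -0.16. Over all genes 24.8% were called higher there and 23.1% lower. Of the 46 calls among deubiquitinases, 36 remained with the row trend removed. None of the 80 had a mean as high as the 3.69 of UCHL1. That mean is among the values that chose UCHL1, so this is a description. Among all 27223 genes it ranked 211 from the highest. Highest called were STAMBPL1, a metalloprotease relative of PSMD14, at 2.61 and 2.66, and TNFAIP3, the A20 regulator of NF-kappaB signaling, at 1.82 and 2.24. Lowest called were YOD1, an OTU protease, at -2.75 and -3.39, and USP51, at -2.83 and -2.65. Among the ubiquitin-specific proteases, USP33 at 1.51 and 1.19 and USP44 at 0.96 and 1.17 were highest, and USP10 at -1.54 and -1.05 was next to USP51 from below. MINDY1, printed on the array under its older name FAM63A, stood at -1.50 and -1.55.

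In GALNT3 KO, 1 of the 80 was called higher and 5 lower, beside 4.71% and 6.35% of all genes. Of these 6 calls, 2 remained with the row trend removed. Without a GALNT3 KO array fewer of the 80 were called and without a GALNT3/T6-labelled one more, as over all genes. The 2 that remained with the row trend removed were STAMBPL1 and USP51. STAMBPL1 was higher by at least 1.87-fold (adjusted p = 0.013 from limma), and Ctrl was not well above background there. USP51 was lower at -0.96 and -1.04 (adjusted p = 0.0164 from limma). Both lay on the same side of Ctrl on the GALNT3/T6-labelled arrays, unlike UCHL1. USP18, an interferon-induced protease that removes ISG15, was called lower in GALNT3 KO at -1.64 and -0.79, and that call was lost with the row trend removed (its adjusted p was then 0.0606). Between the groups 10 deubiquitinases were higher and 15 lower, beside 11.8% and 11.8% of all genes. All 25 calls remained with the row trend removed, while fewer were called without a GALNT3 KO array, as over all genes. The largest differences among them were 2.09 for OTUB1, an OTU protease at -0.17, -0.39, 1.95 and 1.68, and -2.41 for YOD1 (adjusted p of 0.00184 and 0.00487 from limma). The comparison between the groups uses the same arrays as the 2 comparisons over Ctrl, and all 3 share 1 estimate of the spread. The counts of the 3 comparisons are thus not independent of each other.

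**Figure D5:**
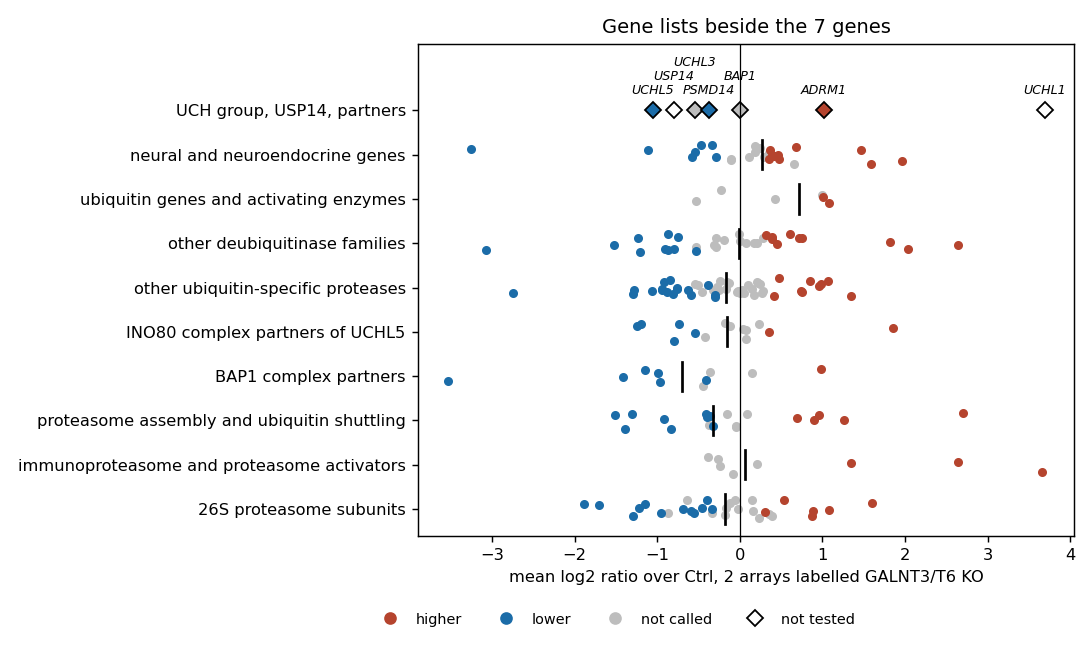
Mean log2 ratio over Ctrl on the 2 GALNT3/T6-labelled arrays (horizontal axis) for the genes of the 9 lists and the 7 members (vertical axis), colored by the call from limma, with a black bar at the median of each list. UCHL1, an open diamond at 3.69, was chosen by its values and not tested. It lies beyond every deubiquitinase of the lists, PSMB8 at 3.66 is close to it, and the list medians lie between -0.70 and 0.71.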

How the data were processed

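The authors scanned 4 two-color Agilent arrays and extracted spot intensities with Feature Extraction (10.7.3.1 per the file headers, 8.5.1.1 in the submitters' processing notes). The deposited log10 ratios of processed red over green were used as an alternative, and the deposited value table equals them within 0.005. Spot mean and local background intensities, as deposited, were corrected with normexp (offset 50) and normalized by loess within each array (limma 3.58.1, R 4.3.3). Each gene was read from its brightest probe, after dropping probes that were in neither group well above background (in either channel, on both arrays). limma fitted all 4 arrays with a mean for each group, and p-values were adjusted over 27223 genes. The fit recovered known changes in simulated data with independent noise and few changed probes. These arrays have many called genes and a shared row trend, so that check does not bear on the counts given here. The members and the 9 gene lists were chosen with earlier results of these data known, so they are no independent evidence. PSMG4, DDI2 and USP50 of the lists had no probe under their name. Named from each list were the called genes with the 2 highest and 2 lowest log2 ratios, every called gene being allowed for lists under 12 genes, and for UCHL1 its 5 nearest genes. The call of NFRKB was named outside that rule, after its value was seen, as the subunit that holds UCHL5. The row trend was removed with a loess of the ratio on mean signal and row (span 0.1). All arrays lay on 1 slide in 1 scan, so neither could be a block. Precision is limited by the number of arrays. A result for 1 gene of the neural list is not reported here.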

Additional observations from a re-analysis of the deposited data

Results flagged for a closer look

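In UCHL1, both GALNT3 KO arrays lay below Ctrl and both GALNT3/T6-labelled arrays above it, a difference of 4.44 in log2. The members were picked for this contrast, so the difference was not tested. UCHL5 differed between the groups by -0.86 and ADRM1 by 0.71, both past the threshold of the test of the difference in limma (adjusted p of 0.01 and 0.018).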

How the results depend on the processing

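UCHL1 stayed below Ctrl in GALNT3 KO (-0.91 to -0.67) and above it on the GALNT3/T6-labelled arrays (3.47 to 4.03) in all 12 alternatives run, and no called value reversed in direction. The causes of the following shifts were not tested. In GALNT3 KO the members called, 0, became 2 with the spread from the group's arrays only. Over all genes that setting took the calls from 1283 higher and 1729 lower to 4552 and 4840. The 26S subunits called there, 8, became 1 with Agilent's own ratio, the deposited table or the row trend removed. They became 4 with median centring or the study's criterion, 17 with the group's own spread and 2 with the methods' t-test. The other deubiquitinases called there, 6, became 2, 2 and 2 in the first 3 of these settings, 35 with the group's own spread and 3 with the t-test. Over all genes, 196 were called higher and 385 lower with Agilent's own ratio, and 197 and 387 with the deposited table. They were 244 and 439 with the row trend removed, and 546 and 1777 with median centring. Counts over all genes are not given for the t-test and the study's criterion. On the GALNT3/T6-labelled arrays, 18 subunits and 46 deubiquitinases became 9 and 30 with the group's own spread and 3 and 10 with the t-test, and 9 to 21 and 30 to 52 with an array left out, lowest without either GALNT3 KO array. Between the groups, 2 members became 1 with median centring and 0 to 3 with an array left out, 9 subunits became 5 with the t-test and 0 to 18 with an array left out, and 25 deubiquitinases became 15 with median centring and 3 to 41 with an array left out. The calls also changed in number with an array left out, a fit that leaves 1 array in a group. In each comparison the subunit and deubiquitinase calls were then fewest without a GALNT3 KO array, as were those over all genes. After adjustment the t-test called 0 in every one of these counts. PSMD14 lost its call on the GALNT3/T6-labelled arrays in 10 of 15 alternatives (adjusted p 0.0156 to 0.269).

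The replicate numbers come from the sample titles, and deviations of same-numbered arrays correlated at -0.237 across genes, so the numbers are not taken as pairs. With a replicate block the calls in GALNT3 KO were 0 subunits and 0 deubiquitinases, beside 30 genes higher and 51 lower among all 27223. Between the groups they were 1 member, 5 subunits and 15 deubiquitinases, beside 2532 genes higher and 2210 lower. With the crossed pairing, added after the data had been seen, 10 deubiquitinases were called in GALNT3 KO. Over all genes 1443 were then called higher there and 2217 lower. Slide and scan could not be fitted as blocks.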
